A study of Oryza sativa with 2 samples.

Results

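Lipid transfer protein genes of rice lie in a pair of tandem clusters near the starts of chromosomes 12 and 11, and their transcript levels were described in whole seedlings. The genes were taken by locus identifier: 10 identifiers were named, 6 on chromosome 12 and 4 on chromosome 11, and 8 of them were found among the 38511 listed loci. These 8 were LOC_Os12g02290, LOC_Os12g02300, LOC_Os12g02330 and LOC_Os12g02340 on chromosome 12, and LOC_Os11g02369, LOC_Os11g02389, LOC_Os11g02400 and LOC_Os11g02424 on chromosome 11. The remaining 2, LOC_Os12g02310 and LOC_Os12g02320, were not analysed here, so the chromosome 12 cluster is described from 4 of its 6 named loci. The genes were chosen by identifier and map position with their FPKM levels in these libraries already known, so all levels are given as a description, with no test.

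The data were 2 RNA-seq libraries of polyadenylated RNA from wild-type plants of the japonica cultivar Nipponbare, aged 3 weeks and grown hydroponically in Yoshida solution with 10 h of light and 14 h of dark a day. The light intensity was 800 umol per m2 per s for both libraries. The labels number the libraries 1 and 2 and do not say whether they came from separate plants, and what spread there is between them may be technical. The tissue was the whole plant, which mixes roots and shoots, and in such bulk RNA fewer cells of a type and less RNA per cell cannot be told apart. The identifiers of leaf and root marker genes were not paired with names here, so the labelled tissue was not checked against markers. Levels are in FPKM, fragments scaled to transcript length and to library size, which allows loci of different length to be compared. The library totals were 670155 FPKM for library 1 and 651935 FPKM for library 2, and the number of fragments sequenced is unknown. Loci with very low values put the depth of library 2 at about 1.09 times that of library 1.

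Non-specific lipid transfer proteins are small, secreted, cysteine-rich proteins whose disulfide bonds hold a hydrophobic cavity that binds lipids. In plants they are known from epidermal and other surface tissues, where they are linked to the deposition of cutin and wax, and several are classed among the pathogenesis-related proteins. The starts of rice chromosomes 11 and 12 are known to be duplicates of each other, in which gene conversion has kept many copies alike in sequence. Reads of near-identical copies can be assigned to either copy. How such reads were treated is not given in the sources used here, so the level of any single copy is uncertain, and reads may also have been shared between the clusters.

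Of the 8 loci, 5 were among the 60 most abundant transcripts of the seedlings by their means. Averaged over both libraries, these 5 were at 1000 FPKM or more, against 0.156% of all listed loci, which is 60 loci in all. Of the 5, LOC_Os11g02389, was below 1000 FPKM in library 1. Similarly, 7 of the 8 averaged 100 FPKM or more, against 2.65% of all listed loci. All 8 averaged 1 FPKM or more, the level taken here as expressed, against 49.8% of all listed loci. In library 1, however, LOC_Os12g02300 was below 100 FPKM, at 20.4 FPKM, and LOC_Os12g02290 was listed at 0. The median of the 8 was 1294 FPKM and the median of all listed loci was 0.979 FPKM. Together the 8 loci held 1.82% of the summed FPKM of library 1 and 1.67% of that of library 2, a mean of 1.74% ± 0.10 (SD, n = 2).

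**Figure D1:**
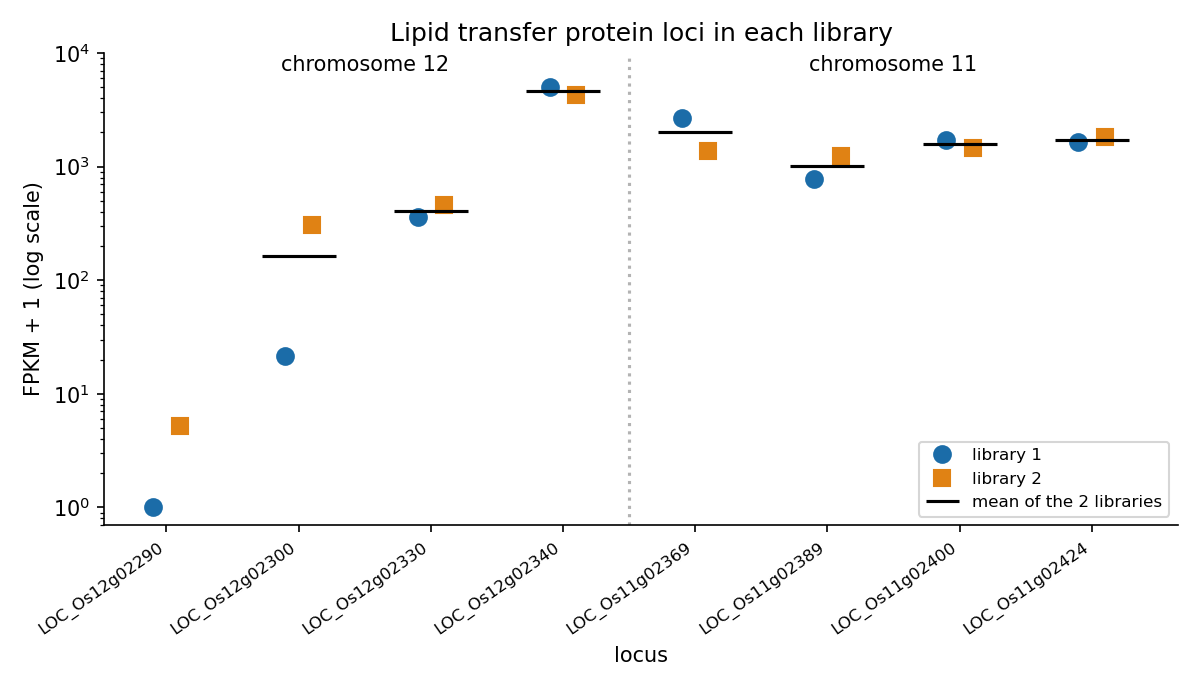
Level of each of the 8 lipid transfer protein loci, as FPKM + 1 on a log axis, in library 1 (circles) and library 2 (squares), with a bar at the mean where both values were above 0. The 4 chromosome 11 loci lie between 769.6 and 2689 FPKM, while those of chromosome 12 run from a listed 0 to 4990 FPKM.

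On chromosome 12, 1 locus carried nearly all of the signal. LOC_Os12g02340, the last of the cluster, had 4990 FPKM in library 1 against 4226 FPKM in library 2, a mean of 4608 ± 540 FPKM (SD, n = 2). It was the 7th highest of all listed loci by its mean, 7th in library 1 and 8th in library 2. It held 93.0% of the FPKM of the chromosome 12 cluster in library 1 and 84.7% in library 2.

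LOC_Os12g02330, the locus before it, had 357.9 FPKM in library 1 against 453.6 FPKM in library 2, a mean of 405.8 ± 67.7 FPKM (SD, n = 2). It ranked 149th of all loci, so that it too was an abundant transcript, but it made up 6.67% of the cluster in library 1 and 9.09% in library 2. The ranges of these 2 neighbouring loci did not overlap.

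The first 2 loci of the chromosome 12 cluster differed sharply between the libraries. LOC_Os12g02300 had 20.4 FPKM in library 1 against 307.1 FPKM in library 2. It was an ordinary transcript in library 1, where it ranked 5551st, and an abundant one in library 2, where it ranked 231st. Its mean of 163.7 FPKM had an SD of 202.8 FPKM (n = 2), larger than the mean. LOC_Os12g02290, the first locus, was listed at 0 in library 1 and at 4.25 FPKM in library 2, and was the lowest of the 8 in both libraries.

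On chromosome 11, the signal was spread over all 4 loci. LOC_Os11g02369, the first of them, had 2689 FPKM in library 1 against 1366 FPKM in library 2, a mean of 2028 ± 936 FPKM (SD, n = 2). LOC_Os11g02389 had 769.6 FPKM in library 1 against 1248 FPKM in library 2, a mean of 1009 ± 338 FPKM (SD, n = 2). Of these 2 loci the first was higher in library 1 and the second in library 2, and their ranges did not overlap.

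The other loci of chromosome 11 varied less. LOC_Os11g02400 had 1702 FPKM in library 1 against 1457 FPKM in library 2, a mean of 1579 ± 173 FPKM (SD, n = 2). LOC_Os11g02424, the last locus, had 1641 FPKM in library 1 against 1814 FPKM in library 2, a mean of 1727 ± 122 FPKM (SD, n = 2). Their ranges overlapped.

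All 4 chromosome 11 loci were among the 60 highest loci by their means, at ranks 31 (LOC_Os11g02369), 37 (LOC_Os11g02424), 42 (LOC_Os11g02400) and 58 (LOC_Os11g02389). The highest locus of the cluster was LOC_Os11g02369 in library 1, with 39.5% of its FPKM, and LOC_Os11g02424 in library 2, with 30.8%. The highest was 3.49 times the lowest in library 1 and 1.45 times the lowest in library 2. LOC_Os11g02389 was the lowest of the 4 in both libraries.

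Ordered by their means over both clusters, the loci ran LOC_Os12g02340, LOC_Os11g02369, LOC_Os11g02424, LOC_Os11g02400, LOC_Os11g02389, LOC_Os12g02330, LOC_Os12g02300 and LOC_Os12g02290. Of the 7 pairs of neighbours in this order, 2 had overlapping ranges over the libraries: LOC_Os11g02369 with LOC_Os11g02424, and LOC_Os11g02424 with LOC_Os11g02400. The order of these 3 loci is therefore within the spread between the libraries. The other 5 pairs did not overlap. LOC_Os12g02340 stood 2.27-fold above the next locus, and LOC_Os12g02330 stood 2.49-fold below LOC_Os11g02389.

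The clusters had sums of similar size that were made up in different ways. The chromosome 12 cluster summed to 5369 FPKM in library 1 against 4991 FPKM in library 2, a mean of 5180 ± 267 FPKM (SD, n = 2). The chromosome 11 cluster summed to 6801 FPKM in library 1 against 5884 FPKM in library 2, a mean of 6343 ± 648 FPKM (SD, n = 2). The chromosome 12 sum was 0.789 times the chromosome 11 sum in library 1 and 0.848 times in library 2, a mean of 0.819 ± 0.042 (SD, n = 2). Without the highest locus of each cluster the ratio was 0.131 ± 0.055 (SD, n = 2), and on the medians of the loci it was 0.191 ± 0.111 (SD, n = 2). The near balance of the sums thus rested on LOC_Os12g02340. The medians count LOC_Os12g02290 and LOC_Os12g02300, the lowest 2 loci by their means. LOC_Os11g02330 and LOC_Os11g02350, described below and similar to them in values, are not among the named chromosome 11 loci. Without LOC_Os12g02290 and LOC_Os12g02300 the ratio of the sums was 0.791 ± 0.006 (SD, n = 2), a setting added after the data were seen. The medians were not compared without these 2 loci, so the median ratio depends on which loci are named. The sums cover the listed loci and leave out the 2 chromosome 12 loci that were not analysed.

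**Figure D2:**
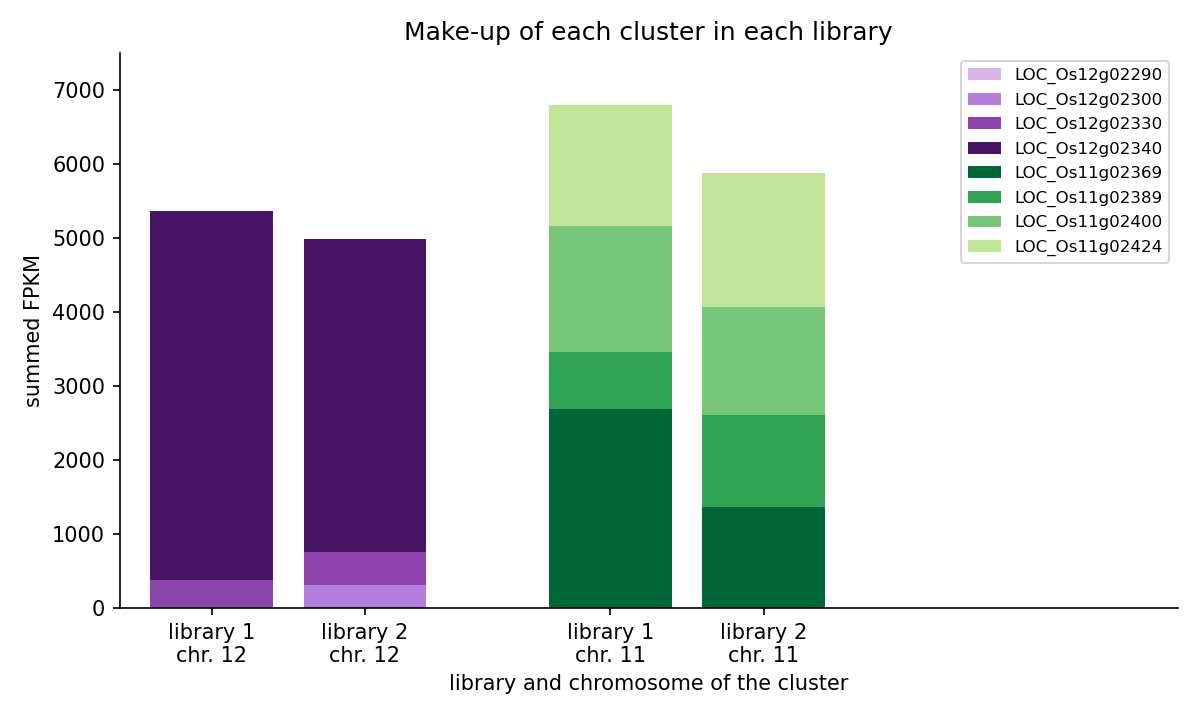
Summed FPKM of the chromosome 12 cluster (left) and the chromosome 11 cluster (right) in each library, stacked by locus. LOC_Os12g02340 fills 93.0% and 84.7% of the chromosome 12 bars in libraries 1 and 2, while no chromosome 11 locus exceeds 39.5% of its bar.

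These few genes made up a visible part of the output of their chromosomes. The 4 chromosome 12 loci held 10.3% of the FPKM of that chromosome in library 1 and 9.42% in library 2, out of 2430 listed loci. The 4 chromosome 11 loci held 17.6% in library 1 and 16.5% in library 2, out of 2654 listed loci. Chromosome 11 had 9 loci that averaged 1000 FPKM or more, and 4 of them were lipid transfer protein loci. Chromosome 12 had 8, of which 1 was LOC_Os12g02340.

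In the chromosome 11 cluster, 4 loci at 1000 FPKM or more stood among 10 consecutive listed loci. On the other 11 chromosomes, no 10 consecutive listed loci held more than 1. This count was made after the levels were seen and is a description of these libraries.

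The loci around the clusters were mostly far lower. The 10 listed loci on each side of each cluster, 40 in all, had a median of 2.43 FPKM, against 1294 FPKM for the lipid transfer protein loci, and 23 of the 40 (57.5%) were expressed. None of the 40 reached 1000 FPKM and 2 reached 100 FPKM. The 4 chromosome 11 loci were interleaved with low ones. LOC_Os11g02379, between the first and second of them, had 4.78 FPKM in library 1 against 3.86 FPKM in library 2, and LOC_Os11g02410, just before the last of them, was listed at 0 in both. Both of these loci were picked out after their values were seen.

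**Figure D3:**
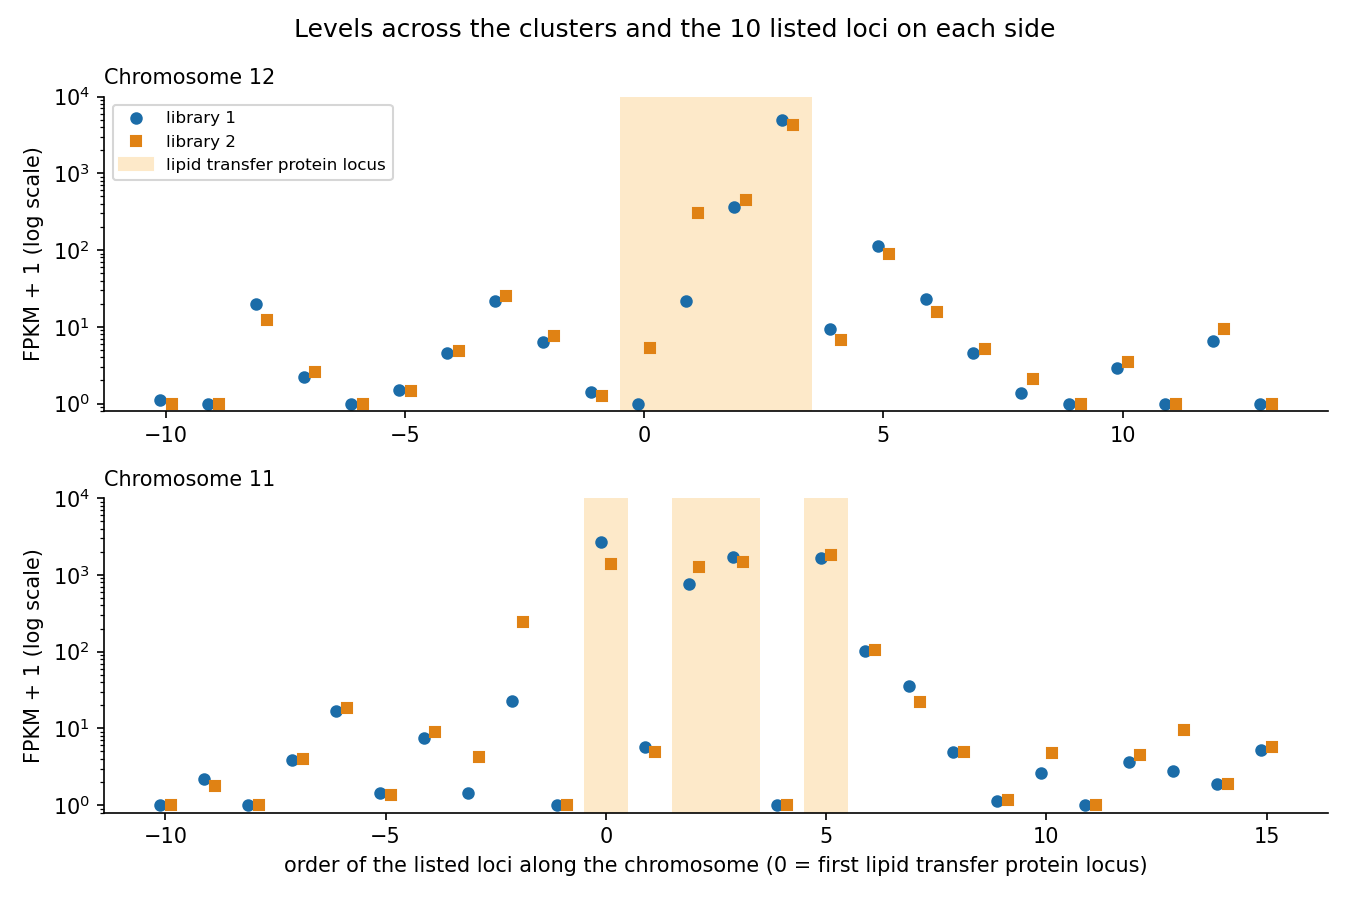
Level, as FPKM + 1 on a log axis, of the listed loci in their order along chromosome 12 (above) and chromosome 11 (below), with the lipid transfer protein loci shaded and the 10 listed loci on each side of each cluster. The neighbours have a median of 2.43 FPKM, below the mean of every shaded locus except LOC_Os12g02290, and the second unshaded locus before the chromosome 11 cluster is high in library 2 only.

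On the side of the higher locus numbers, the first listed locus after the chromosome 12 cluster, LOC_Os12g02350, had 8.35 FPKM in library 1 against 5.66 FPKM in library 2. It was picked out after its values were seen. The highest neighbour on that side was LOC_Os12g02370 on chromosome 12, at 110.4 FPKM in library 1 against 86.7 FPKM in library 2, and LOC_Os11g02440 on chromosome 11, at 102.0 FPKM in library 1 against 104.6 FPKM in library 2. The next highest were LOC_Os12g02380, at 22.1 and 14.6 FPKM in libraries 1 and 2, and LOC_Os11g02450, at 35.1 and 21.1 FPKM. All of these neighbours were below LOC_Os12g02330, LOC_Os12g02340 and all 4 chromosome 11 lipid transfer protein loci in both libraries.

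On the side of the lower numbers, the highest neighbours of the chromosome 12 cluster were LOC_Os12g02250, at 22.5 ± 2.7 FPKM, and LOC_Os12g02200, at 15.3 ± 5.4 FPKM (SD, n = 2 each). Those of the chromosome 11 cluster were LOC_Os11g02350 and LOC_Os11g02300, the second of these at 16.7 ± 0.9 FPKM (SD, n = 2). LOC_Os11g02350 had 21.5 FPKM in library 1 against 242.6 FPKM in library 2. Its values were thus close to those of LOC_Os12g02300 in both libraries: LOC_Os12g02300 had 0.948 times the FPKM of LOC_Os11g02350 in library 1 and 1.27 times in library 2.

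The listed locus before LOC_Os11g02350, LOC_Os11g02330, was picked out after its values were seen. It had 0.437 FPKM in library 1 against 3.20 FPKM in library 2, and so was low in both and higher in library 2, as was LOC_Os12g02290. LOC_Os11g02360, which lies between LOC_Os11g02350 and the first lipid transfer protein locus of chromosome 11, was listed at 0 in both libraries. LOC_Os11g02330 and LOC_Os11g02350 are not among the named lipid transfer protein loci, and no annotation of them was used here. Whether the likeness to the chromosome 12 loci reflects reads shared between copies on chromosomes 11 and 12 was not tested, because no sequences were used.

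Between the libraries, 2 of the 8 loci were at least 2-fold apart on the scale of log2(FPKM + 1), against 6.75% of the 19187 expressed loci, and 1 of these 2 was the low LOC_Os12g02290. That locus was listed at 0 in library 1 and counted as expressed only through library 2, so its call is tied to the filter. The 2 loci that were 2-fold apart were both higher in library 2. So were 625 of the 1295 expressed loci that were 2-fold apart, which is 3.26% of all expressed loci. On this scale the log2 ratio of library 1 over library 2 was -3.85 for LOC_Os12g02300. Its deposited values were 15.1-fold apart. Among the 19187 expressed loci it had the 29th largest absolute log2 ratio, and LOC_Os11g02350, at -3.44, had the 52nd. Each of these loci was above 1 FPKM in both libraries. Of the 7 lipid transfer protein loci at 100 FPKM or more, LOC_Os12g02300 alone was 2-fold apart, against 7.25% of all loci at that level. It averaged 100 FPKM only through library 2, so its place among the 7 is tied to that difference. None of the 5 at 1000 FPKM or more was 2-fold apart, against 1.67% of the 60 loci at that level. LOC_Os11g02369 came close to the 2-fold limit, with a log2 ratio of 0.98, or 1.97-fold higher in library 1.

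The remaining loci differed less. The log2 ratio of library 1 over library 2 was -0.70 for LOC_Os11g02389, -0.34 for LOC_Os12g02330, 0.24 for LOC_Os12g02340, 0.22 for LOC_Os11g02400 and -0.14 for LOC_Os11g02424. Of the 8 loci, 3 were higher in library 1 and 5 in library 2. Over all expressed loci, 9044 were higher in library 1 and 10143 in library 2. Over the 1021 loci at 100 FPKM or more, 613 were higher in library 1 and 408 in library 2. Of the 8 loci, 4 lay within 1.5-fold, against 83.5% of all expressed loci and 78.4% of those at 100 FPKM or more. Over all expressed loci the median log2 ratio was -0.02 and its SD over loci was 0.58. With 1 library on each side, no difference of a single locus can be tested.

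**Figure D4:**
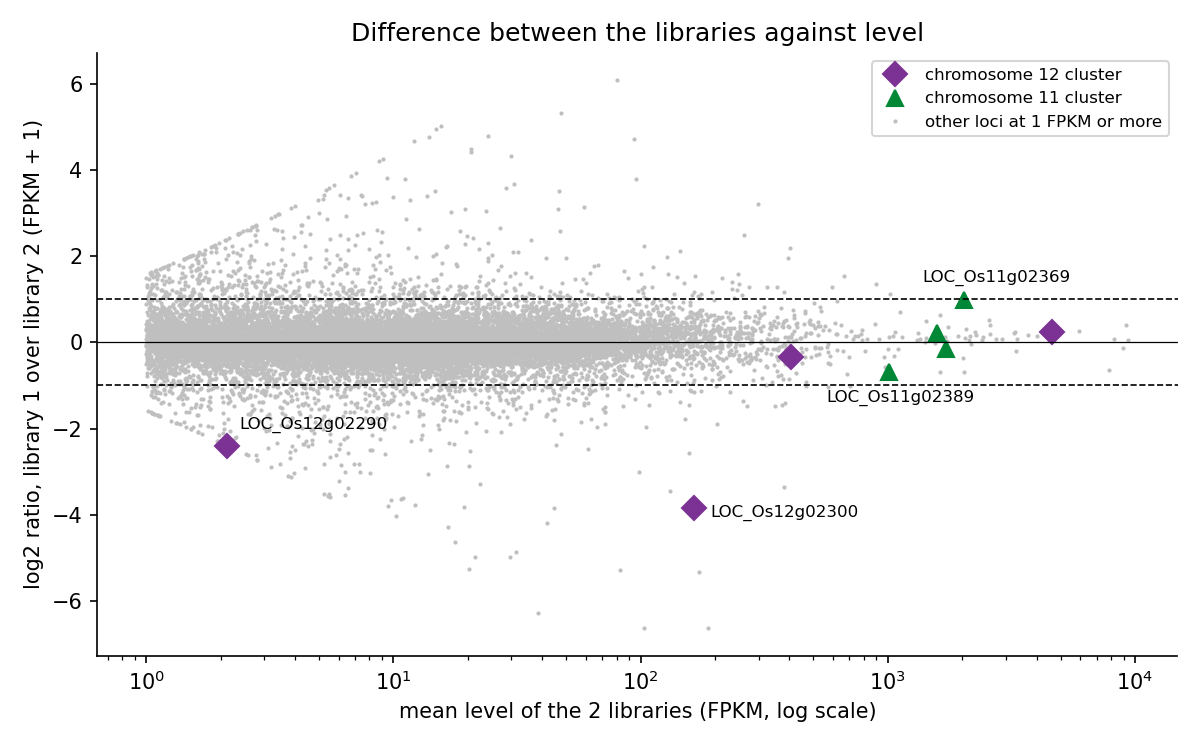
Log2 ratio of library 1 over library 2, on FPKM + 1, against the mean level in FPKM on a log axis, for the chromosome 12 loci (diamonds), the chromosome 11 loci (triangles) and all other expressed loci (grey dots), with dashed lines at 2-fold. LOC_Os12g02300 lies at -3.85, the 29th largest absolute ratio among the 19187 expressed loci, and LOC_Os11g02369 at 0.98, just inside the line.

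The sums of the clusters were closer between the libraries than most of their single loci. Loci of each cluster differed in opposite directions. The ratio of a sum always lies within the range of the ratios of its loci, whatever their directions. Sums of other loci were not compared. The chromosome 12 sum was 1.08-fold higher in library 1 than in library 2, a smaller difference than at any of its 4 loci. That sum was mostly LOC_Os12g02340, which was 1.18-fold higher in library 1. The chromosome 11 sum was 1.16-fold higher in library 1, a smaller difference than at 3 of its 4 loci, the exception being LOC_Os11g02424. Within chromosome 11, the ratio of library 1 over library 2 ran from 0.617 (LOC_Os11g02389) to 1.97 (LOC_Os11g02369). LOC_Os11g02369 thus made up 39.5% of its cluster in library 1 and 23.2% in library 2, while LOC_Os11g02389 made up 11.3% in library 1 and 21.2% in library 2. Whether these opposite differences came from the assignment of reads among similar copies was not tested.

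The loci nearest to LOC_Os12g02340 in level over the 2 libraries were LOC_Os09g17740, LOC_Os07g37550 and LOC_Os02g10390. Their distances, measured as the Euclidean distance of log2(FPKM + 1) over 2 libraries, were 0.118, 0.150 and 0.290. LOC_Os09g17740, which ranked next below LOC_Os12g02340, had 4598 FPKM in library 1 against 4252 FPKM in library 2, so the ranges of these 2 loci overlapped. LOC_Os03g39610, which ranked next above, had 6462 FPKM in library 1 against 5419 FPKM in library 2, and its range did not overlap that of LOC_Os12g02340. With only 2 libraries of 1 group, this likeness describes similar abundance and nothing more.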

How the data were processed

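Per the file headers, the authors deposited FPKM, with 1 value for each locus in each library. The submitters' processing notes name Cufflinks as the tool. Its version, the aligner, the genome build, the annotation, the strand setting and the treatment of reads that match several copies were not given in the sources used here. Because FPKM are not counts, no count model was used, and with 1 group of 2 libraries no test was made. Of the values above 0, 25.7% carry more than 6 significant digits, among them those of 2 lipid transfer protein loci (LOC_Os12g02340 and LOC_Os11g02424). Whether these are sums over transcripts was not tested.

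Chromosome and order were read from the identifiers, without a genome. The reference table (assembly ASM3414082v1) paired 1 of the 38511 identifiers and none of the lipid transfer protein loci, so other lipid transfer protein genes, marker lists and sequences were not used here. Ranks, shares, sums and log2(FPKM + 1) ratios were computed with pandas 2.3.3 and numpy 2.4.6. The ratios, the 2-fold calls and the depth estimate were tested on simulated data. The simulated loci shared no reads and had the same number of reads per FPKM, with changes planted only at 10 FPKM or more. The simulation therefore does not cover similar copies or the recovery of changes at lower loci. The depth estimate is the commonest ratio over 940 loci at a mean of 0.001 to 0.5 FPKM. The named loci are those of the clusters, the 2 highest among the 10 listed loci on each side and the 3 nearest in level. The members, lists and comparisons were chosen with earlier results of these data known. Alternatives covered scaling, pseudocount, threshold, number of neighbours and single libraries.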

Additional observations from a re-analysis of the deposited data

How the results depend on the processing

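Of the alternatives, 5 moved a summary value. The ratio of the chromosome 12 cluster to the chromosome 11 cluster, 0.819 on sums, was 0.191 on medians and 0.131 without the highest locus of each cluster. The medians count LOC_Os12g02290 and LOC_Os12g02300 but not the similar LOC_Os11g02330 and LOC_Os11g02350, and were not recomputed without the first pair. The number of loci 2-fold apart, 2, was 1 with a threshold of 5 FPKM, which leaves out LOC_Os12g02290. The share of neighbours expressed, 57.5%, was 32.5% at 5 FPKM. The median of the 8 loci was 532 times that of the neighbours, and 291 times without the highest locus of each cluster, a setting added after the data were seen. The other 42 values of these summaries stayed within the spread between libraries or within 1.5 times the count. Many of them could not have moved. Shares of summed FPKM and the ratio of the cluster sums do not change when a library is scaled. With 2 libraries, the share or ratio of a single library always lies within the SD around their mean. Under median-ratio scaling the log2 ratio of LOC_Os11g02369 reached 1.00 and 3 loci were 2-fold apart. The log2 ratio of LOC_Os12g02290, -2.39, was -5.44 with a pseudocount of 0.1, so its size depends on the pseudocount. With single libraries, the number of expressed loci was 7 to 8, the share of summed FPKM 1.67% to 1.82%, and the median of the 8 loci over that of the neighbours 422 to 714. Differences between libraries cannot be had from 1 library, and the share of neighbours expressed has no value without a threshold. No paired analysis was possible because the series holds a single group. As the depth is unknown, the 0 of LOC_Os12g02290 in library 1 cannot be given a limit.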
